A study of Mus musculus with 9 samples.

Results

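The genes followed here, 9 in number, belong to the phosphocreatine and adenine nucleotide systems: the creatine kinases Ckm, Ckb and Ckmt2, the creatine transporter Slc6a8, the adenylate kinase Ak1, the AMP deaminases Ampd1 and Ampd3, the adenylosuccinate synthase Adssl1 and the oxygen-binding protein myoglobin, Mb. They were chosen by gene symbol, and these 9 of 24537 genes held 17 of the 35745 transcript rows of the table that sets sham quadriceps muscle beside sham heart. Each gene is given by its row with the highest mean count, and the rows of 1 gene share most of their reads. The study sequenced RNA of mice labelled C57Bl6 (male C57Bl/6JCrl by the study's methods) that had transverse aortic constriction (TAC), a narrowing of the aorta that loads the heart with pressure, or a sham operation at 8 weeks of age. Tissue was taken 12 weeks later, and 3 libraries each were made of heart after sham surgery, quadriceps after sham surgery and quadriceps after TAC. No transgene and no deletion was named for any of these groups, and no label said whether heart and quadriceps came from the same animals.

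Muscle rebuilds ATP at the site of use by moving a phosphate from phosphocreatine to ADP, which is the work of the creatine kinases. Mitochondrial isoenzymes charge creatine where ATP is made, cytosolic isoenzymes spend it at the myofibrils, and a transporter brings creatine into the fibre. Adenylate kinase makes ATP and AMP from a pair of ADP molecules, AMP deaminase turns the AMP into IMP, and adenylosuccinate synthase starts the way back to AMP, which closes the purine nucleotide cycle. Myoglobin holds oxygen in cardiac and in oxidative skeletal fibres.

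The heart and quadriceps libraries held 23383452 to 38382751 counts over all transcript rows. Since rows of 1 gene count the same reads again, the totals with 1 transcript per gene were 10361854 to 20053392. The labelled tissues carried their markers: the summed level of 5 cardiomyocyte genes was 23032 to 25095 CPM (counts per 1000000 counts of TMM-scaled library size) in heart and 132 to 147 CPM in quadriceps, and that of 5 fast-fibre genes was 1.93 to 2.73 CPM in heart and 47456 to 71750 CPM in quadriceps. Myl7, a gene of atrial myocardium, had 2075, 164 and 3 counts in heart replicates 1 to 3. Quadriceps replicate 1 stood apart from the other two, with the lowest fast-fibre sum (47456 CPM) and the highest sum of 3 adipocyte genes (94.0 CPM, against 40.9 and 11.1 CPM). Of the 5 fast-fibre genes, Myh4, Tnnt3 and Actn3 were lowest in replicate 1. Myh1 and Myh2 were lower in replicate 2 (2911 and 1182 CPM) than in replicate 1 (3664 and 1467 CPM). These are bulk tissues, in which fewer cells of a type and less RNA per cell cannot be told apart.

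With TMM scaling, edgeR's quasi-likelihood test and Benjamini-Hochberg adjustment over 24280 transcripts, 5 of the 9 genes (Ckm, Ckmt2, Ak1, Ampd1 and Adssl1) were higher in quadriceps than in heart at an adjusted p under 0.05, where 32.2% of all tested transcripts were. Ckb, Slc6a8 and Mb, 3 of the 9, were lower, where 34.4% of all were, and Ampd3 did not pass the test. Ampd1 passed the count filter through its quadriceps libraries alone. By the study's own rule for this comparison, a log2 fold change beyond 2 with an unadjusted p under 0.05, Ckm, Ampd1 and Adssl1 were higher (3 of 9, against 7.00% of all transcripts) and Ckb was lower (1 of 9, against 8.64%). The median log2 fold change was 0.75 over the 9 genes and -0.06 over all tested transcripts.

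The level of the whole comparison depended on the scaling. When libraries were divided by their totals over 1 transcript per gene in place of TMM, the median of all transcripts moved by -0.48 on the log2 scale, and the split of calls went from 7828 higher and 8354 lower to 4457 higher and 12707 lower. Of the 9 genes, 4 were then higher and 4 lower, against 18.4% and 52.3% of all transcripts, since Ckmt2 lost its call and Ampd3 gained one. With totals over all rows the median moved by -0.75. Relative to the median of all transcripts the members moved little. The log2 difference of Ckmt2 from that median was 0.81 with TMM and 0.82 with these totals.

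**Figure D1:**
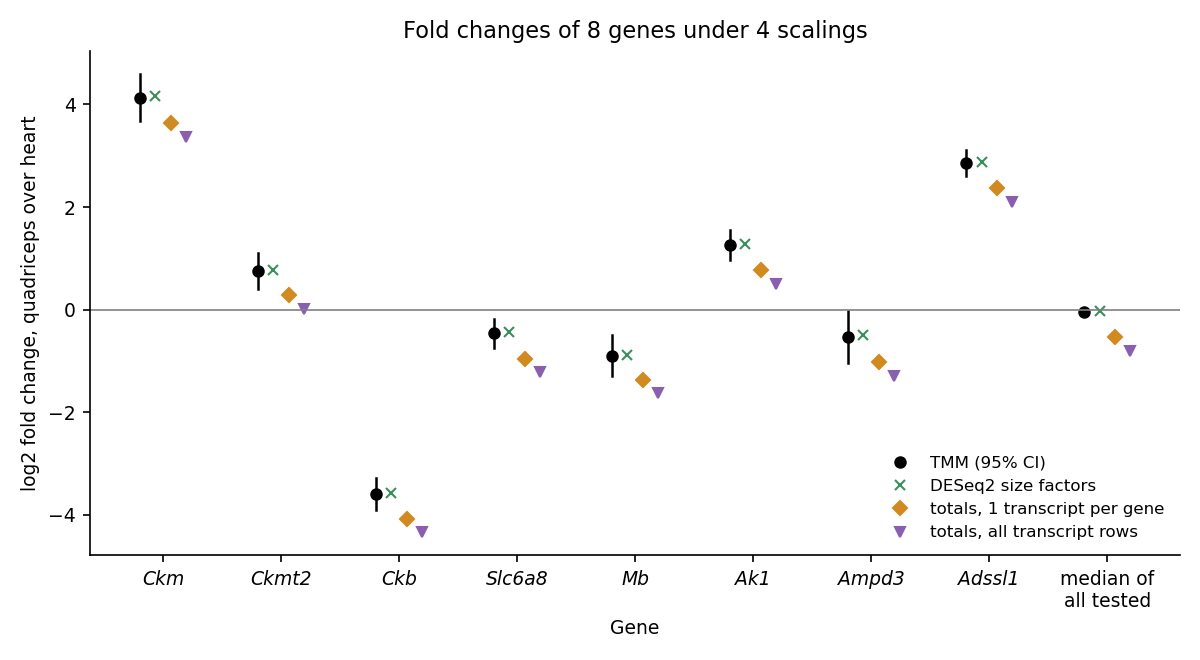
Log2 fold change of quadriceps over heart (vertical axis) for 8 of the genes and for the median of all tested transcripts, with TMM (black, with 95% confidence interval), DESeq2 size factors and library totals of both kinds. Points of 1 gene shift together with the median at the right, and Ckmt2 slides from 0.75 with TMM to 0.01 with totals over all transcript rows; Ampd1 is left out because the heart libraries held 1 count of it.

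In GRCm38, the annotation placed Ckm at chr7:19411094-19421583 on the plus strand, Ckb at chr12:111669355-111672338 on the minus strand, Ckmt2 at chr13:91853386-91876923 on the minus strand and Mb at chr15:77015487-77050668 on the minus strand. In the gene spans of a second annotation, GENCODE, Ckm and Ckmt2 each overlap 1 antisense gene and Mb overlaps 2 genes of the opposite strand. These spans differ from those above (Ckm 19404776-19422841) and include introns. Since the strand setting of the counting was not given, reads of such partners cannot be told apart from theirs where exons overlap. Overlap of exons was not checked.

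The 250 bases before a transcription start are shown for the 3 creatine kinase genes, which carry out the same reaction and whose levels differed in opposite directions, and for 1 start of Mb. All are RefSeq starts in GRCm38.p6, printed 5′ to 3′ on the gene's strand, with every E-box (CANNTG, the letters bound by MyoD-type factors, read on both strands) and every match of the MEF2 site in capitals.
Ckm, chr7:19410844-19411093, plus strand: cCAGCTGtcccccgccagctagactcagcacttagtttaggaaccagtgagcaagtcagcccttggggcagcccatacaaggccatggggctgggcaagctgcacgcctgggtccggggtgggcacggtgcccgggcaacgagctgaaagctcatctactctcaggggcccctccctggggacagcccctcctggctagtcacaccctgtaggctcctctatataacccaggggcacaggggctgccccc
Ckmt2, chr13:91876886-91877135, minus strand: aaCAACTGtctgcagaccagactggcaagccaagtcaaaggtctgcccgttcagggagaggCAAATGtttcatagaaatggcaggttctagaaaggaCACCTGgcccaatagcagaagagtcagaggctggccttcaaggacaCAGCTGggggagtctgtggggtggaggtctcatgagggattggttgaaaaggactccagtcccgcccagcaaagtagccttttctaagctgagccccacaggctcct
Ckb, chr12:111672339-111672588, minus strand: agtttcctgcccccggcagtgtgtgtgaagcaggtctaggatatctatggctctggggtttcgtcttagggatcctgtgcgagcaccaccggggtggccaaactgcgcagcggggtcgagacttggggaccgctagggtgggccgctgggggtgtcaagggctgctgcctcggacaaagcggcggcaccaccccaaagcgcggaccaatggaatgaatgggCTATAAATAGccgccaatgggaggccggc
Mb, chr15:77022788-77023037, minus strand: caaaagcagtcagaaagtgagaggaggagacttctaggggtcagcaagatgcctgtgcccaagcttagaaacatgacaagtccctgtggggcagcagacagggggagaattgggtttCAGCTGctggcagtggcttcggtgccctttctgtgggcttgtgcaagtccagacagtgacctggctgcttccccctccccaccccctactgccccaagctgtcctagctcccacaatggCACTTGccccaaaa

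Ckmt2 had 4 E-boxes in this window, Mb 2, Ckm 1 and Ckb 0. The Ckmt2 window reaches into the gene span given above, from 91876886 to the end of that span at 91876923. Among 32851 RefSeq promoters of the same length, 66.2% held at least 1 and 3.84% held 4 or more, so that the single match of Ckm was common and the 4 of Ckmt2 were not. The Ckb window held 1 match each of the MEF2 site, the MCAT element (CATTCC) and TATAAA, which were found in 0.508%, 12.6% and 12.4% of promoters, and its TATAAA lies inside its MEF2 match. No MEF2 match, MCAT element or TATAAA was found in the other 3 windows. Of the 9 genes, 7 were matched in the RefSeq promoter table, and the matches are letters in a window, not binding sites.

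**Figure D2:**
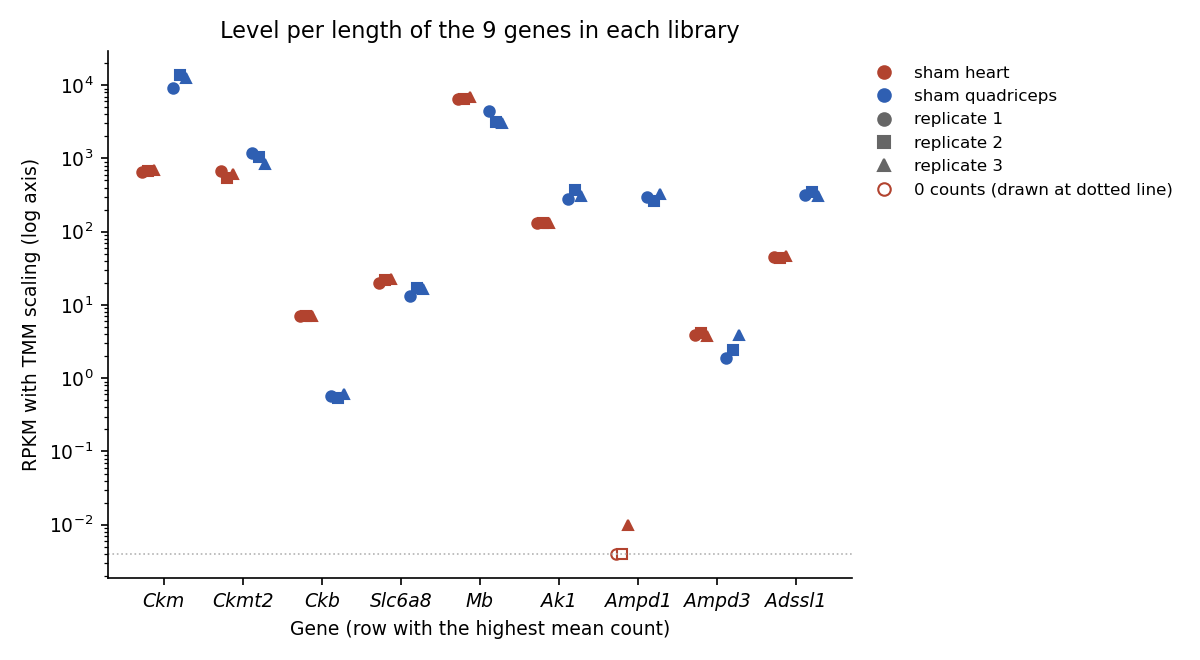
Level of each of the 9 genes per library, as RPKM (counts per kilobase of transcript and scaled library size) with TMM scaling (log axis), for sham heart (red) and sham quadriceps (blue), with 1 marker shape per replicate number. Ckm, Ckmt2, Ak1, Ampd1 and Adssl1 lie higher in every quadriceps library than in every heart library. Ckb, Slc6a8 and Mb lie lower, and Ampd3 overlaps. The heart libraries with 0 counts of Ampd1 are drawn as open symbols at the dotted line.

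Ckm, the cytosolic muscle creatine kinase, showed the highest level per length of the 9 genes in quadriceps. Its level was 929, 948 and 985 CPM in heart and 13039, 19516 and 17730 CPM in quadriceps. Every quadriceps library lay more than an order of magnitude above every heart library, and replicate 1, the one with the lowest fast-fibre sum in CPM, was the lowest of the 3. The mean was 954 ± 28.7 CPM (SD, n = 3) in heart and 16762 ± 3345 CPM (SD, n = 3) in quadriceps, a log2 fold change of 4.14 (SE 0.21, adjusted p = 1.97e-07, edgeR's quasi-likelihood test), or 17.6-fold. Of the counts with 1 transcript per gene, Ckm took 0.229% to 0.245% in heart and 2.46% to 3.39% in quadriceps.

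Ckmt2, the sarcomeric mitochondrial creatine kinase, stood at 977, 801 and 915 CPM in heart and at 1745, 1547 and 1246 CPM in quadriceps. The groups did not overlap, and here replicate 1 was the highest quadriceps library. The log2 fold change was 0.75 (SE 0.16, adjusted p = 0.00212, edgeR's quasi-likelihood test). That call was lost with library totals over 1 transcript per gene (log2 fold change 0.28, adjusted p = 0.175 in the same test) and with totals over all rows (0.01, adjusted p = 0.958), while limma on log2(RPKM + 0.5) gave -0.0084 (adjusted p = 0.969).

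Ckb, the creatine kinase of brain, smooth muscle and many other cells, went the other way. It was found at 10.2, 10.3 and 10.3 CPM in heart and at 0.846, 0.794 and 0.904 CPM in quadriceps, from 441 to 520 counts and from 16 to 23 counts per library. The levels within each tissue were tight and far apart between tissues, at a log2 fold change of -3.60 (SE 0.14, adjusted p = 3.34e-08, edgeR's quasi-likelihood test), or 12.1-fold higher in heart. Markers of other cells moved as well: the 3 endothelial genes (Pecam1, Cdh5 and Kdr) were all lower in quadriceps, with sums of 381 to 411 CPM in heart and 112 to 130 CPM in quadriceps. Of the 3 smooth muscle genes, Acta2 was lower, Tagln was higher and Myh11 did not pass the test, with sums of 87.7 to 110.5 CPM and 64.0 to 84.9 CPM. The 3 Schwann cell genes summed to 3.05 to 4.26 CPM in heart and 25.3 to 27.2 CPM in quadriceps. Their part in the level of Ckb was not tested.

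The makeup of the creatine kinase pool needs no scaling between libraries, since it is a share within each library of counts per length over Ckm, Ckb, Ckmt1 and Ckmt2. Ckm made up 49.7%, 55.0% and 52.8% of the pool in heart and 88.7%, 93.0% and 93.7% in quadriceps. Heart thus held the cytosolic and the mitochondrial form in nearly even parts, and quadriceps held mostly the cytosolic form, with no overlap. The mean share of Ckm was 52.5% ± 2.70 in heart and 91.8% ± 2.72 in quadriceps (SD, n = 3 each) and that of Ckmt2 was 47.0% ± 2.73 in heart and 8.21% ± 2.72 in quadriceps. Ckb was 0.541% ± 0.029 of the pool in heart and 0.005% ± 0.001 in quadriceps, and Ckmt1, the ubiquitous mitochondrial form, was at or under 0.017% in every library. Over the 4 pools described here 17 shares were tested, and the exact two-sided permutation test gave p = 0.1 (adjusted p = 0.113) for each of these 4, which is the smallest p that 3 against 3 libraries allow. The ratio of Ckm to Ckmt2 counts per length was 0.997, 1.24 and 1.13 in heart and 7.84, 13.2 and 14.9 in quadriceps.

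**Figure D3:**
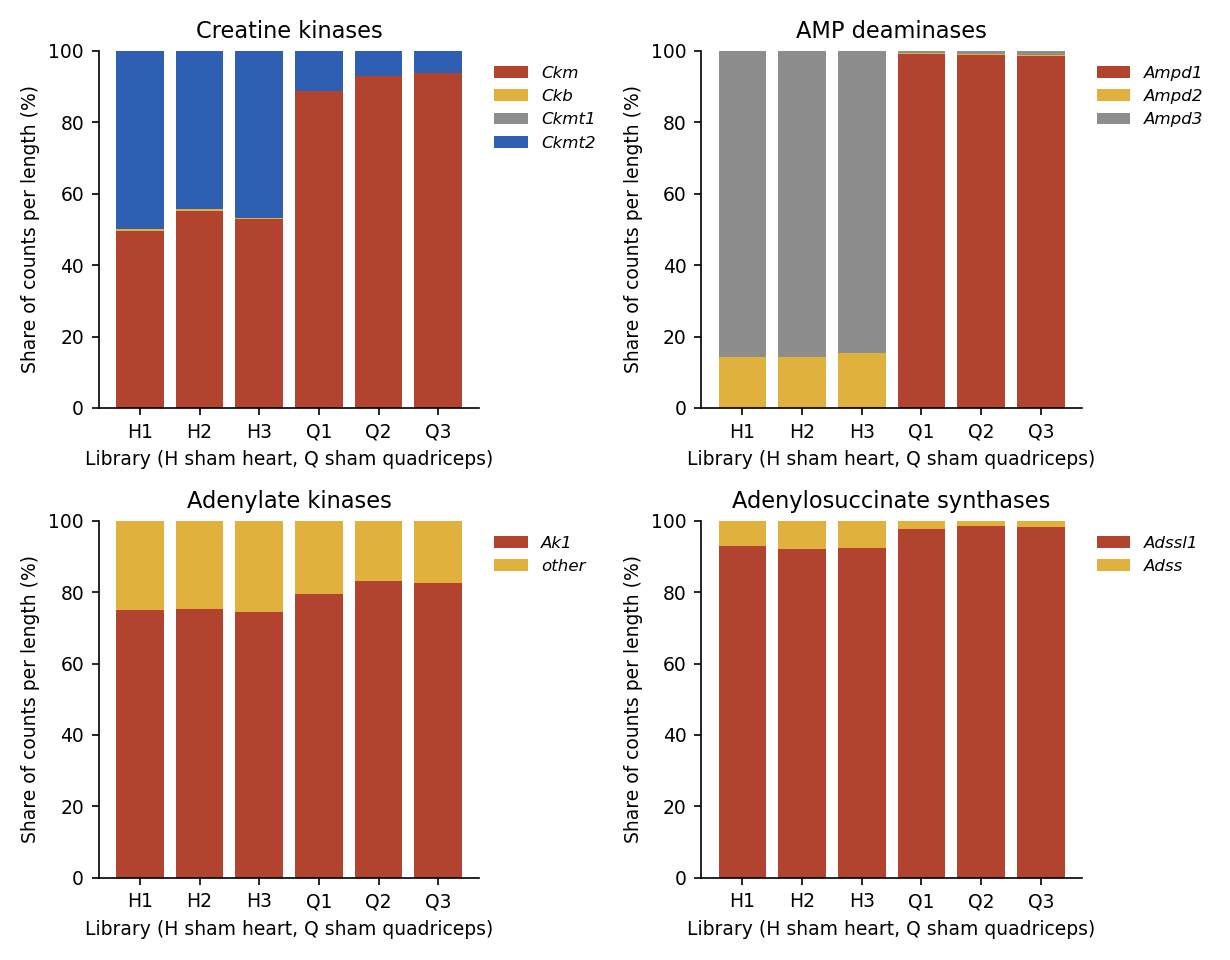
Makeup of the creatine kinase, AMP deaminase, adenylate kinase and adenylosuccinate synthase pools as percent of counts per length (vertical axis) in each library, H1 to H3 of sham heart and Q1 to Q3 of sham quadriceps, with the adenylate kinases other than Ak1 summed. The creatine kinase bars go from nearly even parts of Ckm and Ckmt2 in heart to 88.7% to 93.7% Ckm in quadriceps, and the AMP deaminase bars go from mostly Ampd3 to almost wholly Ampd1.

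Slc6a8, the transporter that takes up creatine, was at 78.1, 85.5 and 90.6 CPM in heart and at 52.1, 67.8 and 64.3 CPM in quadriceps. The groups did not overlap, with a log2 fold change of -0.47 (SE 0.12, adjusted p = 0.00755, edgeR's quasi-likelihood test) that became -0.96 with totals over 1 transcript per gene and -1.22 with totals over all rows, and with TMM its 3 rows, at chrX:73673133-73682502, gave log2 fold changes of -0.47 to -0.46. Set against its kinase, the ratio of Slc6a8 to Ckm counts per length was 0.0316 ± 0.0015 in heart and 0.00132 ± 0.0001 in quadriceps (SD, n = 3 each). Of the 3 other genes of creatine metabolism, Gatm and Gamt make creatine. Gamt was higher in quadriceps with TMM (log2 fold change 1.34, SE 0.33, adjusted p = 0.00548, edgeR's quasi-likelihood test) but not with totals over 1 transcript per gene (0.88, adjusted p = 0.056). Gatm, with a log2 fold change of 0.00, and Ckmt1, with -0.98, did not pass with TMM, and Gatm was lower with totals over 1 transcript per gene (-0.47, adjusted p = 0.0489 in the same test), while Ckmt1 was lower with totals over all rows (-1.70, adjusted p = 0.033).

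Mb was the most abundant of the 9 genes in heart. It stood at 7253, 7208 and 7492 CPM in heart and at 4932, 3482 and 3377 CPM in quadriceps. All heart libraries exceeded all quadriceps libraries, of which replicate 1 was the highest. The log2 fold change of this row was -0.90 (SE 0.18, adjusted p = 0.00167, edgeR's quasi-likelihood test), or 1.86-fold higher in heart, and the other 2 rows gave -1.03 and -1.02. Without quadriceps replicate 1, which also had the highest adipocyte and the lowest fast-fibre sum in CPM, the log2 fold change was -1.07 (adjusted p = 5.08e-05 in the same test), that of Ckm was 4.31 and that of Ckmt2 was 0.67 (adjusted p = 0.00264). The slow-fibre sum (Myh7, Tnnt1 and Tnni1) was 344 CPM in replicate 1 and 553 and 489 CPM in the other two, so the library with the highest Mb level had the lowest slow-fibre level in CPM; the part of any of these markers was not tested.

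Mb and Ckm RNA stood in opposite order in the tissues. The ratio of Mb to Ckm counts per length was 9.95, 9.69 and 9.69 in heart and 0.482, 0.227 and 0.243 in quadriceps, so that myoglobin RNA exceeded Ckm RNA in every heart library and fell short of it in every quadriceps library (exact two-sided permutation test, p = 0.1, the smallest possible). Mb took 1.79% to 1.86% of the counts with 1 transcript per gene in heart and 0.577% to 0.930% in quadriceps.

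The rows of Mb differed from each other by tissue. The row of 1103 bases held more counts than the row of 962 bases, and this surplus was 8.53%, 8.50% and 9.83% of the longer row's counts in heart and 17.1%, 16.7% and 15.6% in quadriceps. The surplus was larger in every quadriceps library, at 16.5% ± 0.76 against 8.95% ± 0.76 in heart (SD, n = 3 each), and the rows differ by 141 bases in length. Over the row of 1050 bases, which is 53 bases shorter, it was almost the same, at 16.4% ± 0.75 in quadriceps and 8.67% ± 0.75 in heart (SD, n = 3 each). For Ak1, the surplus of the row of 2058 bases over that of 2036 bases was 16.6% ± 1.59 of the longer row's counts in heart and 13.7% ± 0.89 in quadriceps (SD, n = 3 each), with the nearest libraries at 14.8% and 14.7%. These rows were singled out after their values were seen, and the deposited tables do not show which exons carry the surplus.

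**Figure D4:**
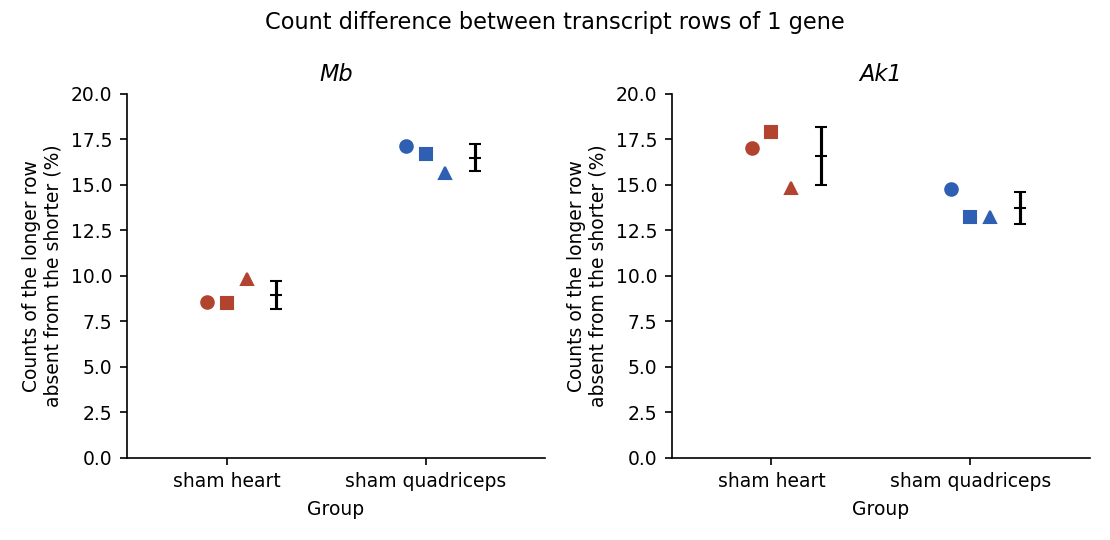
Share of the counts of the longer transcript row that the shorter row of the same gene lacks (percent), per library, for Mb (left) and Ak1 (right), with the mean and SD (n = 3) beside the points; circles, squares and triangles are replicates 1, 2 and 3. The Mb surplus is 8.50% to 9.83% in heart and 15.6% to 17.1% in quadriceps, while the Ak1 values of the tissues nearly touch.

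Ak1, the main cytosolic adenylate kinase of muscle (chr2:32621758-32635058, plus strand), was at 271, 272 and 273 CPM in heart and at 571, 758 and 624 CPM in quadriceps. Heart values were almost identical and every quadriceps value was higher, at a log2 fold change of 1.26 (SE 0.13, adjusted p = 2.57e-05, edgeR's quasi-likelihood test), and its 4 rows gave 1.26 to 1.31. The rise was smaller than that of Ckm: the ratio of Ckm to Ak1 counts per length was 5.13 ± 0.14 in heart and 37.6 ± 4.10 in quadriceps (SD, n = 3 each; exact two-sided permutation test p = 0.1). Of the adenylate kinase pool, Ak1 made up 74.9% ± 0.51 in heart and 81.7% ± 1.93 in quadriceps, without overlap (exact permutation test p = 0.1, adjusted p = 0.113). Among the other adenylate kinases with TMM, Ak6 was higher in quadriceps (log2 fold change 1.62), the mitochondrial Ak4 was lower (-1.86), and Ak3 did not pass (-0.11). Ak3 was lower with totals over 1 transcript per gene (-0.59, adjusted p = 0.000684, edgeR's quasi-likelihood test). With totals over all rows it was at -0.86 (adjusted p = 6.24e-05 in the same test). Ak5, Ak7 and Ak8 had at most 4 counts in any library.

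Ampd1, the AMP deaminase of skeletal muscle (chr3:103073897-103099720, plus strand), separated the tissues most of all 9 genes. Heart replicates 1 to 3 gave 0, 0 and 1 counts of it, and quadriceps gave 18523, 14795 and 13506 counts, or 681, 618 and 763 CPM. Scaled for library size, the ratio of the summed counts was 95861 with an exact 95% interval of 17204 to 3786410, which covers counting error only. The adjusted p was 1.78e-09 in edgeR's quasi-likelihood test. Ampd1 passed the count filter through its quadriceps libraries alone, so this p is no support apart from the counts themselves.

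Ampd3, the isoform first known from red blood cells (chr7:110767790-110812409, plus strand), was at 15.6, 16.2 and 14.8 CPM in heart and at 7.50, 9.57 and 15.6 CPM in quadriceps. Quadriceps replicate 3 lay within the heart range, and the other two lay below it. The log2 fold change of -0.53 (SE 0.22, adjusted p = 0.0577, edgeR's quasi-likelihood test) missed the threshold narrowly. Without quadriceps replicate 3 it was -0.84 (adjusted p = 0.00162), and without replicate 1 it was -0.30 (adjusted p = 0.142). With all 6 libraries it passed under other settings of the same test, at -1.03 with totals over 1 transcript per gene (adjusted p = 0.00186), at -0.57 with no filter (adjusted p = 0.0336) and at -0.58 with the replicate block (adjusted p = 0.0218). The 3 erythroid genes summed to 132 to 158 CPM in heart and at most 47.4 CPM in quadriceps. The 3 macrophage genes summed to 20.5 to 22.1 CPM in heart. In quadriceps they reached 16.6 CPM in replicate 3 against 7.79 and 8.15 CPM in replicates 1 and 2. In that replicate Cd68, at 6.16 CPM, lay above its heart values of 3.80 to 4.35 CPM. Adgre1 and Csf1r, at 3.50 and 6.95 CPM, lay below theirs. The part of either list was not tested. In the GENCODE gene spans Ampd3 overlaps Rnf141 on the opposite strand.

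Within the AMP deaminase pool the exchange was nearly complete. Ampd3 made up 85.8%, 85.7% and 84.7% of counts per length in heart and 0.641%, 0.898% and 1.18% in quadriceps, and Ampd2, the broadly expressed form, made up 14.5% ± 0.45 and 0.188% ± 0.068 (SD, n = 3 each). Ampd1 supplied 98.9% ± 0.28 in quadriceps and 0.076% ± 0.13 in heart. Shares of a pool add to a fixed sum, and the level of Ampd3 itself, given above, differed far less between the tissues than its share. Each share gave p = 0.1 (adjusted p = 0.113) in the exact permutation test.

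Adssl1, the muscle adenylosuccinate synthase (chr12:112620047-112641355, plus strand), was at 78.9, 77.6 and 83.5 CPM in heart and at 567, 620 and 551 CPM in quadriceps. The tissues were well apart, at a log2 fold change of 2.86 (SE 0.11, adjusted p = 4.34e-08, edgeR's quasi-likelihood test), or 7.24-fold. It was already 92.5% ± 0.44 of the pool of both synthases in heart and 98.2% ± 0.35 in quadriceps (SD, n = 3 each), the rest being Adss. In quadriceps, Ampd1 and Adssl1, which stand on opposite arms of the cycle, had similar counts per length, at a ratio of 0.918, 0.763 and 1.06. In heart the leading deaminase was Ampd3, whose ratio to Adssl1 was 0.0874 ± 0.0072. Adsl, the lyase that completes the cycle, was also higher in quadriceps (log2 fold change 1.01, SE 0.10, adjusted p = 2.06e-05, edgeR's quasi-likelihood test), and Adss was higher with TMM (0.71) but not with totals over 1 transcript per gene (0.23, adjusted p = 0.22).

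Ranked by level per length, the heart order was Mb (6635 RPKM with TMM scaling), Ckm (679), Ckmt2 (609), Ak1 (132), Adssl1 (45.0), Slc6a8 (21.5), Ckb (7.00), Ampd3 (3.93) and Ampd1 (0.00334). In that order only Ckm and Ckmt2 overlapped as neighbours. The quadriceps order was Ckm (11930 RPKM with TMM scaling), Mb (3563), Ckmt2 (1026), Adssl1 (326), Ak1 (316), Ampd1 (296), Slc6a8 (15.5), Ampd3 (2.75) and Ckb (0.578). Adssl1, Ak1 and Ampd1 overlapped there, and the other neighbours did not.

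The wider pathway was counted over 35 genes in 6 lists, of which 34 were listed and 30 tested. Of the 30, 10 were higher and 11 lower in quadriceps at an adjusted p under 0.05 in edgeR's quasi-likelihood test, near the 32.2% and 34.4% over all transcripts, with a median log2 fold change of -0.35 against -0.06. With totals over 1 transcript per gene 6 were higher and 18 lower, against 18.4% and 52.3% of all transcripts. By the study's rule, used both ways, 2 were higher and 3 lower, against 7.00% and 8.64%.

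Both genes past the rule upward were subunits of AMP-activated protein kinase, the sensor of the AMP that adenylate kinase makes. Prkag3, its skeletal muscle γ subunit, was at 1.97, 1.37 and 1.82 CPM in heart and at 103, 194 and 182 CPM in quadriceps, a log2 fold change of 6.54 (SE 0.29, adjusted p = 9.25e-08, edgeR's quasi-likelihood test). Prkab2, a β subunit, went from 31.3 ± 2.23 to 307 ± 30.2 CPM (SD, n = 3 each), a log2 fold change of 3.29. The other β subunit, Prkab1, was lower (-1.51), so the β isoforms differed in opposite directions. Of its 7 subunit genes 4 were higher with TMM and 3 lower, where 32.2% and 34.4% of all transcripts were; Prkaa1, at 0.41 with TMM, was at -0.06 with totals over 1 transcript per gene.

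The 3 genes past the rule downward were the nucleotidases Nt5e (log2 fold change -2.61, SE 0.25) and Nt5c2 (-2.44, SE 0.16), which remove phosphate from AMP and IMP, and cytoglobin, Cygb (-2.10, SE 0.13), each with an adjusted p of at most 1.27e-05 in edgeR's quasi-likelihood test. Nt5e was at 13.9, 9.52 and 8.85 CPM in heart and at 1.36, 2.34 and 1.58 CPM in quadriceps. Cygb was at 33.0, 40.9 and 34.6 CPM in heart and at 9.30, 8.61 and 7.35 CPM in quadriceps. In neither gene did the tissues overlap. Of the 12 genes of AMP, adenosine and IMP breakdown and salvage, 2 (Aprt and Gmpr) were higher, 5 were lower and 5 did not pass, against 32.2% higher and 34.4% lower over all transcripts; with totals over 1 transcript per gene 1 was higher and 9 were lower, against 18.4% and 52.3%. Neuroglobin had at most 1 count in any library.

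The genes whose log2 CPM over the 6 libraries lay nearest to a member's, by Euclidean distance after centring each gene on its mean and among 6012 candidates with a mean of at least 10 CPM, were Med6, Gstz1 and Atp5h for Ckmt2, and Hsdl2, Tmod3 and Acadl for Mb. The distances were 0.18 to 0.20 and 0.13 to 0.19 on the log2 scale. The points share 2 tissues, so likeness rests mainly on the tissue difference.

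The effect of TAC could be read for 1 of the 9 genes, since the table of TAC against sham quadriceps lists 587 genes of secreted proteins and holds Ckm alone among them. This comparison shares its 3 sham quadriceps libraries with the one above. Normalized counts of Ckm were 288265, 471788 and 431340 in sham and 428576, 592091 and 604226 in TAC. The last is a library whose deposited number matches no label, and it is called the library without a number below. The groups overlapped. The log2 fold change of TAC over sham was 0.45 (SE 0.29, 95% interval -0.21 to 1.11, adjusted p = 0.278 over 586 genes, edgeR's quasi-likelihood test), which missed the threshold and leaves fold changes from 0.864 to 2.15 within the interval. By the study's rule for this table, a log2 fold change of at least 1 either way with an unadjusted p under 0.05, 11.4% of the listed genes were higher and 12.6% lower, and Ckm was not among them.

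The direction of Ckm after TAC depended on the scaling. Ckm alone took 37.9% to 46.6% of the listed counts in each of the 6 libraries, and TMM over such a list sets its level from the list. The deposited RPKM, scaled to whole libraries, were 7730, 10073 and 9550 in sham and 6478 and 8789 in the TAC libraries with a number, and with library totals of those 5 the log2 fold change was -0.26 (adjusted p = 0.458, edgeR's quasi-likelihood test). The groups overlapped on that scale too. The median of all tested genes was 0.03 with TMM and -0.63 with these totals, so Ckm moved along with the whole list. These totals also left out the TAC library without a number, and TMM without that library gave 0.27 for Ckm. Of the pathway genes this table lists Xdh alone. Xdh, which degrades hypoxanthine to urate, was higher after TAC (log2 fold change 1.04, SE 0.32, adjusted p = 0.0425 in the same test), at 416, 511 and 385 normalized counts in sham and 1298, 543 and 864 in TAC; the call was lost in 8 of 10 alternatives, at adjusted p of 0.0557 to 0.372. Among these, leaving out TAC replicate 1 gave 0.63 (adjusted p = 0.152), leaving out any 1 sham library gave adjusted p of 0.0844 to 0.150, and library totals of 5 libraries gave 0.44 (adjusted p = 0.372).

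**Figure D5:**
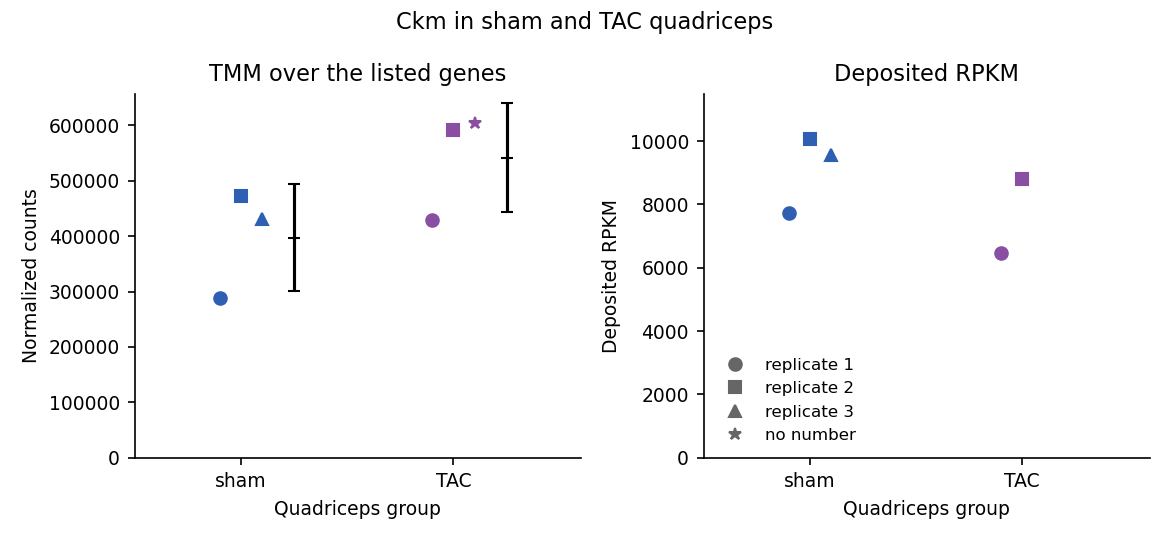
Ckm in sham and TAC quadriceps, as counts normalized by TMM over the listed genes (left, with mean and SD, n = 3) and as deposited RPKM of the 5 libraries matched to a label by number (right). Marker shapes are replicate numbers, and the star is the TAC library whose number matches no label. The groups overlap in both panels, and TAC lies higher on average at the left and lower at the right.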

How the data were processed

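RNA was sequenced from 9 mouse libraries, 3 each of sham heart, sham quadriceps and TAC quadriceps, grouped by their labels. Nothing in the labels tied a library to a separate animal, so p-values measure the spread between libraries. Per the submitters' processing notes, Trim Galore and STAR were used with the mm10 build, and the authors deposited the raw count of every RefSeq transcript in each library; the strand setting was not given in the sources used here. RPKM values, equal to the count over transcript length and library total, and the lengths themselves were deposited as well. The deposited log2 fold changes, F values, p-values and FDR columns are the authors' own comparisons and were not used, nor was 1 RPKM column of a library that no label matches by number; its counts were used as a TAC quadriceps library without a number.

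Tests ran in R 4.3.3 with edgeR 4.0.16, on rows where 2 or more libraries exceeded 5 counts (TMM, quasi-likelihood test, Benjamini-Hochberg adjustment over all tested rows, 24280 for tissue and 586 for TAC), after the script was tested on simulated data. CPM are counts over TMM-scaled library size, and normalized counts of the TAC table use the mean size of its 6 libraries. The SE is the absolute log2 fold change over the square root of F. Shares and ratios are of counts per base within a library, tested with exact permutation tests (SciPy 1.17.1). DESeq2 1.42.0, limma 3.58.1 on log2(RPKM + 0.5) and log2(RPKM + 1), other filters and scalings, and leaving out each library were the alternatives; library totals over 1 transcript per gene and TMM without Ckm were added after seeing the data. Replicates were compared and none was a repeat of another (chi-square over degrees of freedom at least 7.10). The members and gene lists were chosen with earlier results of these data known. Named were the 9 members, genes of the lists past the study's rule or needed to describe a pool, and the 3 genes nearest in profile to Ckmt2 and Mb; those of Ckm and 1 gene of the lists are not reported here. Depth limits counting precision for Ckb in quadriceps (16 to 23 counts) and Ampd1 in heart (0 to 1).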

Additional observations from a re-analysis of the deposited data

How the results depend on the processing

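The directions of Ckm, Ckb, Ak1, Adssl1, Slc6a8 and Mb and their calls held in every alternative run; Ampd1 held wherever it was tested, and requiring 10 counts in each library leaves it out. Ckmt2 was -0.0084 (log2 fold change) with limma on log2(RPKM + 0.5) and -0.0084 with log2(RPKM + 1), and it lost its call with both kinds of library totals. Ampd3 gained a call in 8 alternatives, among them no filter (-0.57) and at least 10 counts (-0.60). Ckm after TAC was -0.26 with library totals of 5 libraries (median of all tested genes -0.63), 0.40 with TMM without Ckm and 0.22 to 0.59 when a library was left out.

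Transcripts higher and lower in quadriceps numbered 3241 and 15203 with totals over all rows, 4457 and 12707 with totals over 1 transcript per gene, 3201 and 15319 with limma on log2(RPKM + 0.5), 3194 and 15322 on log2(RPKM + 1), and 4744 and 5059 with 1 transcript per gene tested, which has fewer rows. By the study's rule, used both ways, 4171 and 3242 were lower with the first 2 settings. Higher and lower numbered 552 and 1344 and then 419 and 903 with limma. They numbered 1059 and 1353 with 1 transcript per gene, and 861 and 839 with at least 10 counts. Beyond the altered totals, the cause was not tested.

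Shares in quadriceps minus heart were 97.5 points for Ampd1 and -72.9 for Ampd3 with summed deposited RPKM of all rows, and 98.1, -85.6, 12.7 (Ak1) and 7.87 (Adssl1) with raw counts without length.

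The deviations of heart and quadriceps libraries that share a number were nearly uncorrelated (r of 0.06, -0.04 and 0.04). Since the tissues of 1 animal need not deviate alike, these values cannot show whether libraries of the same number came from 1 animal. With the replicate block Ampd3 was -0.58 (adjusted p = 0.0218, edgeR's quasi-likelihood test) and passed, no other member's call moved, and Ckm after TAC was 0.45 in 4 libraries.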
